A study of Homo sapiens with 20 samples.

Results

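The 10 genes described here are members of the BCL2 family, chosen by name and not by their values, and all 10 were found among the 24196 genes listed by symbol. They are the anti-apoptotic members BCL2, BCL2L1 and MCL1, the effectors BAX and BAK1, and the BH3-only members BID, BAD, BBC3, PMAIP1 and BCL2L11. BCL2 family proteins decide whether the outer membrane of the mitochondria stays closed. Anti-apoptotic members hold the effectors in check, effectors open pores that release cytochrome c, and BH3-only members carry a short helix, the BH3 domain, that binds into a groove of the anti-apoptotic members or activates the effectors directly. In ovarian carcinoma, BCL2L1 and MCL1 are well known as guardians of survival and are targets of BH3 mimetic drugs.

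RNA-seq of polyA RNA was available for 8 orthotopic tumors, 4 labelled PBS and 4 labelled Gluconate. The study's text speaks instead of OVCAR8 cells treated with gluconate for this RNA-seq, and the labels, which speak of tumors, were followed. By the labels, these are orthotopic tumors of OVCAR8, a human line of high-grade serous ovarian cancer, in NSG mice, which lack T, B and NK cells but keep their own fibroblasts, vessels and myeloid cells. According to the study's methods, cells were placed in the ovarian fat pad, the mice received PBS or a low dose of sodium gluconate by weekly intraperitoneal injection, and the cells of both groups carried luciferase and the non-targeting guide sgNC. Sodium gluconate is studied there as a modulator of TMEM87A, a membrane protein that pairs with CHP1, and the comparison asks what it changes in the tumor. The dose and the age of the mice stand in the study's methods and not in the labels. The labels also do not say that each library is a separate mouse, so the p-values below measure the spread between these libraries only. The 12 libraries of knockout cells in the same series were not analysed here.

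Values are FPKM, the fragments of a gene divided by its length and by the fragments of its library, so levels can be set beside each other between genes. PBS replicate 4 was shallow, with 3944893 fragments over the listed genes against 39248707 to 46457636 in the other 7 libraries. Its profile also stood apart, with Pearson's r of 0.938 to 0.951 to the others across genes, where the lowest r among the other 7 was 0.980. Log2 fold changes of the members and of the genes named from each list for their change are therefore given with and without it. The keratins KRT8 (700 to 1051 FPKM) and KRT18 (513 to 987 FPKM), the lineage factor PAX8 (32.4 to 50.7 FPKM) and EPCAM (10.3 to 22.3 FPKM) were present in every library, while the ovarian cancer antigen MUC16, KRT19 and CDH1 stayed at or near 0. The summed level of 10 fibroblast markers was 45.3 FPKM in PBS replicate 4, 130 to 185 FPKM in the other PBS tumors and 165 to 192 FPKM in the gluconate tumors, most of it COL1A1, with COL1A2, DCN, PDGFRA and POSTN at or near 0. Summed markers of endothelial cells were at 16.3 to 24.6 FPKM in PBS and 18.7 to 21.7 FPKM in gluconate tumors. Most of this was ENG and EGFL7, with CDH5, CLDN5, VWF and KDR at or near 0. The 6 myeloid markers were at 25.9 to 28.9 FPKM in PBS and 20.8 to 28.0 FPKM in gluconate tumors. Most of this was CD68, with PTPRC, CD14 and LYZ at or near 0. The lymphocyte markers in the table summed to at most 1.13 FPKM in any library. The symbols are human, on the build GRCh38, while the fibroblasts, vessels and myeloid cells of the host are of the mouse. These sums therefore need not follow the number of host cells, and the part of mouse reads in them was not tested. In bulk tumors, fewer cells of a type and less RNA per cell cannot be told apart. The part of these markers in the values of PBS replicate 4 was not tested.

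The helix that gives the BH3-only members their name is shared by all 10 genes, and its coding stretch is shown because it is what binds the members to each other. The capitals mark 6 codons of the BH3 core, which were searched for as a leucine codon, any 3 codons, a codon for glycine, alanine or serine, and an aspartate codon. The 5 codons on either side are in lower case. The sequences are read 5′ to 3′ on the coding strand from GRCh38 with the transcripts of GENCODE 29.
MCL1: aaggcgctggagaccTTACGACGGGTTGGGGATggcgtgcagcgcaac
BCL2L1: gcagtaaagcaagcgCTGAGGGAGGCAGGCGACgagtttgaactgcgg
BCL2: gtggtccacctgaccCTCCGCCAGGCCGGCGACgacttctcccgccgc
BAX: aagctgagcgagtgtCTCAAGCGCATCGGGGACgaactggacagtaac
BAK1: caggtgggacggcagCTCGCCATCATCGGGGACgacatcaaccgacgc
BID: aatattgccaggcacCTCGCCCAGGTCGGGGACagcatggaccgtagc
BAD: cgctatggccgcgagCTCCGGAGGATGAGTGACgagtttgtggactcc
BBC3: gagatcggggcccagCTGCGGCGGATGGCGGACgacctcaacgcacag
PMAIP1: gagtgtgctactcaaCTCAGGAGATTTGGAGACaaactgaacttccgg
BCL2L11: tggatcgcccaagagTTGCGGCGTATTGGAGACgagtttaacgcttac
The motif occurred once in the protein of every member but BID, where it occurred at 2 places and the stretch of the known BH3 domain is shown. Each stretch lies within a single exon. The fifth capital codon reads GGN in every member except BAD and BBC3, where it reads AGT and GCG.

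The tumors of both groups held the same ranking of family members, led by MCL1 and closed by BCL2. MCL1 had a mean of 83.2 FPKM over the 8 libraries, followed by BCL2L1 at 41.4, BAD at 38.4, BAX at 30.8, BAK1 at 22.6, BID at 14.0, PMAIP1 at 9.77, BCL2L11 at 3.13, BBC3 at 1.86 and BCL2 at 0.465 FPKM. The gene that names the family was thus the lowest member, 179 times below MCL1 and 89.0 times below BCL2L1. Of the members, 6 were above 10 FPKM in every library, and the 3 lowest were below 5 FPKM in every library. Neighbours in this order were separated in part only. BCL2L1 and BAD overlapped in their ranges, and BCL2L1 was the higher of both in 6 of the 8 libraries. BAD and BAX, BID and PMAIP1, and BCL2L11 and BBC3 also overlapped in range, but the order within each of these pairs held in all 8 libraries. The other 5 pairs of neighbours had ranges that did not overlap. These levels depend on the gene lengths behind the deposited values, which ranged from 1227 bases for BAD to 10383 bases for BCL2, as the size of 1 fragment in each gene shows. By fragments summed over the libraries, without division by length, MCL1 and BCL2L1 still ranked 1 and 2, BAK1 moved up to 3, ahead of BAD and BAX, PMAIP1 passed BID, and BBC3 moved to the last place behind BCL2.

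**Figure D1:**
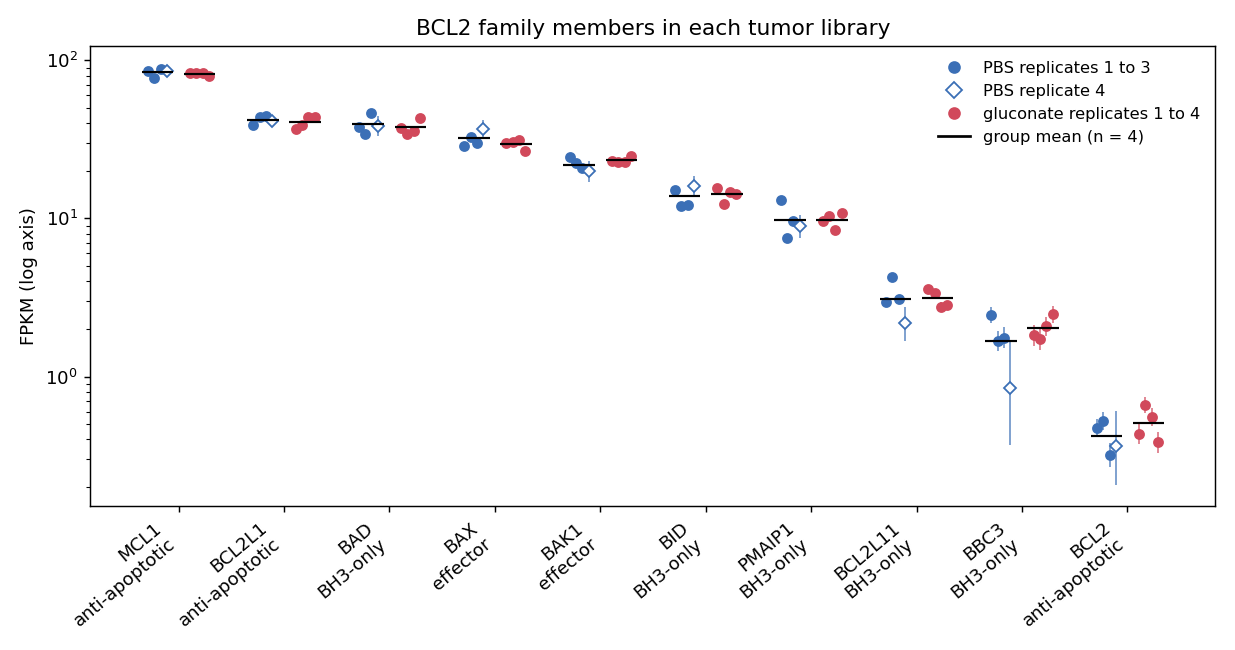
FPKM (log axis) of the 10 members in each library, ordered by mean level, with PBS libraries in blue, gluconate libraries in red and group means as black bars (n = 4). Thin vertical lines are 95% Poisson intervals of the fragments, which cover counting error only. The groups overlap for every member, and the open diamond of PBS replicate 4 is the lowest value of BBC3 (0.852 FPKM) and of BCL2L11 (2.17 FPKM).

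No member differed between gluconate and PBS tumors beyond the spread between libraries. Of the 9 members that passed the minimum of 0.5 FPKM in the mean, 0 had an unadjusted p under 0.05 in limma's moderated test on log2(FPKM + 0.1), against 4.62% of the 12486 genes tested. With a 2-fold change required as well, these were again 0 members, against 0.296% of all genes. An adjusted p under 0.05 was reached by 0 members and by 0% of all genes. Their adjusted p (limma, Benjamini-Hochberg over all genes tested) ran from 0.743 to 0.961. A fit with voom on fragments recovered from the FPKM steps also gave 0 members at an unadjusted p under 0.05, and 0 genes at an adjusted p under 0.05 with 596 genes at an unadjusted p under 0.05, where limma on FPKM had 577. The FPKM values of the groups overlapped in all 10 members, whereas 3.49% of all genes tested had groups without overlap. An exact permutation test of each member, two-sided over the 70 splits and with a smallest possible p of 0.0286, gave p from 0.20 for BAK1 to 0.857. Of the 9 tested members, 5 had a log2 fold change above 0, against 66.4% of all genes, and their median was 0.03, against 0.07 over all genes. Without PBS replicate 4, log2 fold changes above 0 made up 48.9% of all genes, the median was -0.02 for the members and -0.00 for all genes, 6.18% of all genes had an unadjusted p under 0.05, and 0 members did. A p above the threshold does not show that the groups are alike, so the intervals below give the sizes of change that remain possible. With all 8 libraries, the 95% interval of the fold change on the FPKM + 0.1 scale lay between 0.761 and 1.93 for each of the 10 members, and so held no 2-fold change in either direction. This limit depends on the setting. With PBS replicate 1 left out, BBC3 had a log2 fold change of 0.52 (unadjusted p of 0.0813, limma), and an interval that spans 0 there also reaches past 2-fold.

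**Figure D2:**
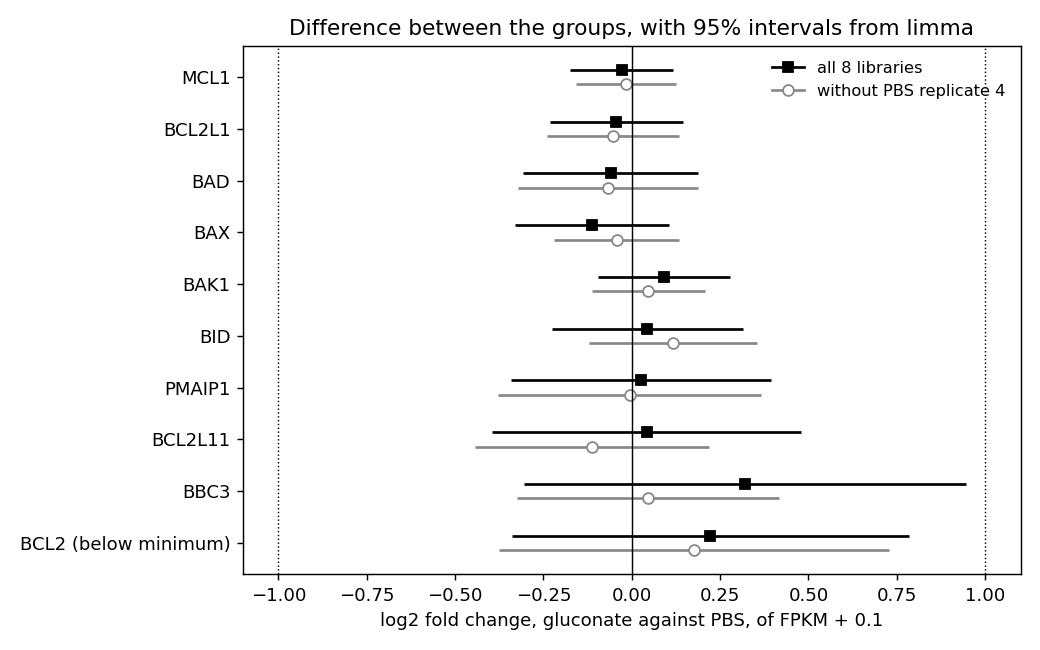
Log2 fold change of gluconate against PBS tumors on the FPKM + 0.1 scale for each member, with 95% intervals from limma, for all 8 libraries (squares) and without PBS replicate 4 (open circles). Dotted lines mark 2-fold changes. Every interval spans 0, the narrowest is that of MCL1, and BBC3 moves from 0.32 to 0.05 once PBS replicate 4 is left out.

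MCL1, a short-lived protein that holds BAK1 and several BH3-only members in check, is encoded at chr1:150574551-150579738 on the minus strand, with the stretch shown at chr1:150578862-150578909 in exon 1 of 3. It was at 85.8, 77.0, 87.5 and 86.1 FPKM in PBS replicates 1 to 4 and at 83.3, 82.9, 83.5 and 79.7 FPKM in gluconate replicates 1 to 4. PBS replicate 2 was the lowest of all and the other PBS tumors were the highest, so that the gluconate values lay inside the PBS range. PBS tumors had a mean of 84.1 ± 4.80 FPKM and gluconate tumors one of 82.3 ± 1.76 FPKM (SD, n = 4 each). The log2 fold change was -0.03 (standard error 0.06, 95% interval -0.17 to 0.12). As a fold this interval is 0.886 to 1.08, the narrowest of the 10 members. Leaving out PBS replicate 4 gave a log2 fold change of -0.02. Behind it stood 1345 fragments in PBS replicate 4 and 12964 to 15449 fragments in each of the others.

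BCL2L1, which encodes the survival protein BCL-XL and by splicing its short pro-apoptotic form, lies at chr20:31664452-31723989 on the minus strand, with the stretch shown at chr20:31721919-31721966 in exon 2 of 3. The FPKM values are per gene, so the splice forms are summed. It was at 38.8, 43.8, 44.4 and 41.2 FPKM in PBS tumors and at 36.9, 38.9, 43.9 and 43.7 FPKM in gluconate tumors. Both groups covered nearly the same range, with means of 42.0 ± 2.59 and 40.8 ± 3.52 FPKM (SD, n = 4 each). The log2 fold change was -0.04 (standard error 0.08, 95% interval -0.23 to 0.14), and -0.05 without PBS replicate 4. ABALON, an antisense gene, overlaps BCL2L1, and whether the counting used strand is not given in the sources used here. Annotated genes overlap every member but BAX and PMAIP1, among them ADAMTSL4-AS1 on the strand of MCL1 and MIR4435-2HG opposite BCL2L11.

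BCL2, the founding member and target of venetoclax, spans chr18:63123346-63320128 on the minus strand, with the stretch shown at chr18:63318346-63318393 in exon 2 of 3. It was at 0.474, 0.524, 0.319 and 0.366 FPKM in PBS tumors and at 0.433, 0.663, 0.557 and 0.386 FPKM in gluconate tumors. Gluconate replicates 2 and 3 were the highest, and the other gluconate values lay within the PBS range. With 132 to 294 fragments in 7 libraries and 15 in PBS replicate 4, the gene was detected in every tumor, but its mean lay below the 0.5 FPKM minimum. A fit without that minimum, over 24196 genes, gave a log2 fold change of 0.22 (standard error 0.24, 95% interval -0.34 to 0.78) with an adjusted p of 0.808 (limma). It was 0.18 without PBS replicate 4. The exact permutation p was 0.314 with all 8 libraries.

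BAX, a soluble effector that moves to mitochondria when activated, lies at chr19:48954815-48961798 on the plus strand, with the stretch shown at chr19:48955772-48955819 in exon 3 of 6. It was at 28.6, 32.9, 29.9 and 36.9 FPKM in PBS tumors and at 29.9, 30.5, 31.4 and 26.6 FPKM in gluconate tumors. The highest value was that of PBS replicate 4 (213 fragments, 95% Poisson interval 32.1 to 42.1 FPKM) and the lowest that of gluconate replicate 4, while the other 6 libraries stayed between 28.6 and 32.9 FPKM. BAX had the lowest unadjusted p of the tested members, 0.276 (limma), with a log2 fold change of -0.11 (standard error 0.10, 95% interval -0.33 to 0.11). Without PBS replicate 4 the log2 fold change was -0.04 (95% interval -0.22 to 0.13).

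BAK1, the effector that sits in the mitochondrial membrane, lies at chr6:33572547-33580293 on the minus strand, with the stretch shown at chr6:33575384-33575431 in exon 4 of 6. It was at 24.3, 22.5, 20.8 and 19.9 FPKM in PBS tumors and at 23.1, 22.7, 22.7 and 24.7 FPKM in gluconate tumors. PBS replicates 3 and 4 were the lowest, and PBS replicate 1 was higher than all gluconate tumors but 1. The log2 fold change was 0.09 (standard error 0.08, 95% interval -0.09 to 0.28), and 0.05 without PBS replicate 4. Pseudogenes named BAK1P1 and BAK1P2 exist, and how reads shared with them were counted is not given in the sources used here.

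BID, which links death receptors to the mitochondria once caspase-8 cuts it, lies at chr22:17734138-17774770 on the minus strand, with the stretch shown at chr22:17739412-17739459 in exon 4 of 6. It was at 15.1, 12.1, 12.2 and 16.0 FPKM in PBS tumors and at 15.6, 12.3, 14.7 and 14.2 FPKM in gluconate tumors. The PBS tumors fell into a high and a low pair, and the 4 gluconate tumors lay between these pairs or within the upper one, gluconate replicate 2 just above the lower pair. The log2 fold change was 0.04 (standard error 0.12, 95% interval -0.23 to 0.31), and it was 0.12 without PBS replicate 4. Its sign changed under some settings.

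BAD, whose binding to BCL2L1 is blocked by phosphorylation and 14-3-3 proteins, lies at chr11:64269830-64284704 on the minus strand, with the stretch shown at chr11:64271619-64271666 in exon 3 of 4. It was at 37.8, 34.3, 46.6 and 38.4 FPKM in PBS tumors and at 37.5, 34.0, 35.8 and 43.1 FPKM in gluconate tumors. PBS replicate 3 and gluconate replicate 4 were high, and the other 6 libraries lay within 34.0 to 38.4 FPKM. The log2 fold change was -0.06 (standard error 0.11, 95% interval -0.31 to 0.19), and it was -0.07 without PBS replicate 4 and 0.03 without PBS replicate 3. The gene overlaps GPR137 on the opposite strand, so fragments of the pair may not be separable.

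BBC3, better known as PUMA, a BH3-only protein that binds all anti-apoptotic members, lies at chr19:47220822-47232766 on the minus strand, with the stretch shown at chr19:47226576-47226623 in exon 3 of 4. It was at 2.45, 1.68, 1.76 and 0.852 FPKM in PBS tumors and at 1.83, 1.72, 2.08 and 2.47 FPKM in gluconate tumors. The single low value, PBS replicate 4, rested on 8 fragments, with a 95% Poisson interval of 0.368 to 1.68 FPKM, while the other libraries had 167 to 266 fragments. With all 8 libraries, BBC3 had the largest log2 fold change of the 10 members, 0.32 (standard error 0.28, 95% interval -0.30 to 0.95, unadjusted p of 0.277 in limma). Without PBS replicate 4 it was 0.05 (standard error 0.17, 95% interval -0.33 to 0.42), with means of 1.97 ± 0.425 FPKM (SD, n = 3) in PBS and 2.02 ± 0.333 FPKM (SD, n = 4) in gluconate tumors. With PBS replicate 1, the highest PBS value, left out instead, it was 0.52 with an unadjusted p of 0.0813 (limma), the lowest p of any member in any setting tried.

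PMAIP1, or NOXA, which binds MCL1 and is induced by the ATF4 arm of the stress response, lies at chr18:59899948-59904306 on the plus strand, with the stretch shown at chr18:59902658-59902705 in exon 2 of 2. It was at 13.1, 7.47, 9.58 and 8.93 FPKM in PBS tumors and at 9.60, 10.3, 8.40 and 10.8 FPKM in gluconate tumors. Both the highest and the lowest value belonged to PBS tumors, and the gluconate tumors lay between them. The means were 9.76 ± 2.38 and 9.78 ± 1.05 FPKM (SD, n = 4 each), and the log2 fold change was 0.03 (standard error 0.16, 95% interval -0.34 to 0.39), and -0.01 without PBS replicate 4.

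BCL2L11, or BIM, which binds all anti-apoptotic members and is a target of FOXO factors, lies at chr2:111119378-111168447 on the plus strand, with the stretch shown at chr2:111150088-111150135 in exon 4 of 5. It was at 2.96, 4.25, 3.08 and 2.17 FPKM in PBS tumors and at 3.59, 3.38, 2.76 and 2.84 FPKM in gluconate tumors. PBS tumors again held both ends of the range, replicate 2 the highest and replicate 4 the lowest, the latter with 66 fragments. The log2 fold change was 0.04 (standard error 0.19, 95% interval -0.39 to 0.48) and changed sign to -0.11 (95% interval -0.44 to 0.22) without PBS replicate 4.

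The members differed among themselves in how much they varied from tumor to tumor. Over the 7 libraries without PBS replicate 4, the coefficient of variation of FPKM was 4.27% for MCL1, 5.57% for BAK1, 6.72% for BAX and 7.62% for BCL2L1. It was higher for all BH3-only members, with 11.0% for BID, 12.3% for BAD, 16.1% for BCL2L11, 17.1% for BBC3 and 18.2% for PMAIP1, and was 23.8% for BCL2. On the log2(FPKM + 0.1) scale, the standard deviations of MCL1, BAK1, BAX and BCL2L1 stood at the 5.91, 14.7, 25.8 and 34.9 percentile of all genes tested, and those of BID, BAD, BCL2L11, BBC3 and PMAIP1 at the 59.9, 64.2, 76.1, 78.9 and 83.6 percentile. Counting of fragments alone would give coefficients of 0.850% for MCL1, 2.12% to 2.55% for BAK1, BAX, BID, BAD and PMAIP1, and 7.03% to 7.12% for BCL2 and BBC3. PMAIP1 therefore varied more than BAK1 and BAX at a similar counting error, but levels differ along with the roles, and no test was made of this pattern.

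**Figure D3:**
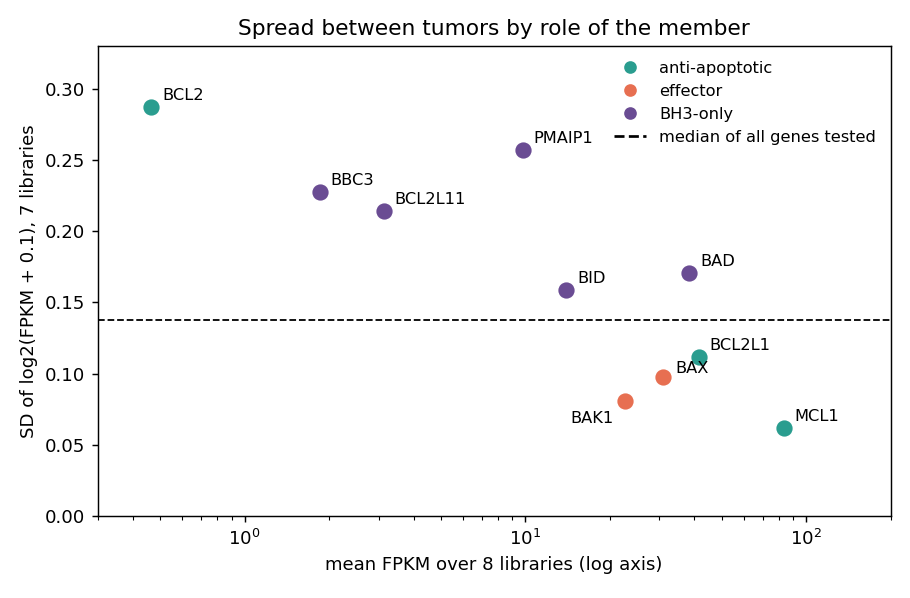
Standard deviation of log2(FPKM + 0.1) over the 7 libraries without PBS replicate 4 against mean FPKM over 8 libraries (log axis), 1 point for each member, coloured by role. MCL1, BCL2L1, BAX and BAK1 lie below the dashed median of all genes tested (0.14), and BCL2 and the 5 BH3-only members lie above it.

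The pattern of BAX over these 7 libraries was most like that of FOXD2-AS1, SAE1 and PMPCA, with Pearson's r of 0.981, 0.979 and 0.968 on the log2(FPKM + 0.1) scale. PMAIP1, the tested member with the widest spread, was most like ELAVL2, VTA1 and HAX1, with r of 0.946, 0.945 and 0.935. Each was picked as the highest r among 12485 genes over only 7 libraries, where 52 genes had an r above 0.9 with BAX and 22 with PMAIP1. These values describe the libraries, which share their preparation, and carry no test.

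Ratios between members within a library, some of them between death-promoting and survival genes, do not depend on the scaling of that library. The ratio of BAX to BCL2L1 was 0.739, 0.751, 0.674 and 0.895 in PBS tumors and 0.811, 0.785, 0.714 and 0.608 in gluconate tumors, with the extremes in replicate 4 of each group. BAX exceeded BCL2 by 60.4 to 101 times in PBS and by 46.0 to 69.1 times in gluconate tumors. MCL1 exceeded BCL2L1 by 1.76 to 2.26 times and BAX exceeded BAK1 by 1.08 to 1.85 times over all libraries. The groups overlapped in each of these ratios.

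Summed by role, the anti-apoptotic members reached 121 to 132 FPKM, the effectors 50.7 to 56.8 FPKM and the BH3-only members 59.7 to 73.5 FPKM over the 8 libraries. MCL1 supplied 63.5% to 69.1% of the anti-apoptotic sum and BCL2 only 0.242% to 0.542%. BAD supplied 52.9% to 63.7% of the BH3-only sum. The ratio of the effector sum to the anti-apoptotic sum was 0.427 ± 0.0321 (SD, n = 4) in PBS and 0.428 ± 0.0116 (SD, n = 4) in gluconate tumors. The ratio of the BH3-only sum to the anti-apoptotic sum ran from 0.493 to 0.594 with overlapping groups. These are sums of mRNA levels, and protein was not measured in these files.

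Of 13 other BCL2 relatives, 8 passed the minimum, 4 with a log2 fold change above 0 and 4 below, against 66.4% of all genes above 0. Their median was 0.00 (-0.03 without PBS replicate 4) against 0.07 (-0.00) over all genes. An unadjusted p under 0.05 in limma was reached by 0 of them, against 4.62% of all genes. The largest rise was that of BCL2L13, a mitochondrial outer membrane protein linked to mitophagy, with a log2 fold change of 0.17 (95% interval -0.11 to 0.46), and 0.06 without PBS replicate 4, its lowest library at 4.88 FPKM. The largest fall was that of BCL2A1, an NF-κB-induced survival protein, at -0.77 (95% interval -1.72 to 0.17), and -0.91 without PBS replicate 4, where it rested on 5 fragments. BCL2A1 was at 1.36, 1.62, 5.37 and 1.51 FPKM in PBS tumors and at 1.66, 1.48, 0.791 and 0.951 FPKM in gluconate tumors. PBS replicate 3 alone was high, and the other PBS tumors lay within the gluconate range. The next relatives were picked after their values were seen. BIK, a BH3-only protein of the endoplasmic reticulum, was likewise highest in PBS replicate 3, at 13.2 FPKM against 4.26 to 7.60 FPKM in the other libraries. BOK, a relative of BAX and BAK1, held 21.1 to 23.5 FPKM in all 8 libraries, a level beside that of BAK1. BCL2L2, the survival protein BCL-w, held 9.95 to 12.2 FPKM and so exceeded BCL2 in every library. BNIP3, a hypoxia-induced mitophagy receptor, had 89.6 to 151 FPKM and was above MCL1 in every library. The BH3-only relatives BMF and HRK, at no more than 0.325 and 0.138 FPKM, were among the 5 relatives below the minimum.

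**Figure D4:**
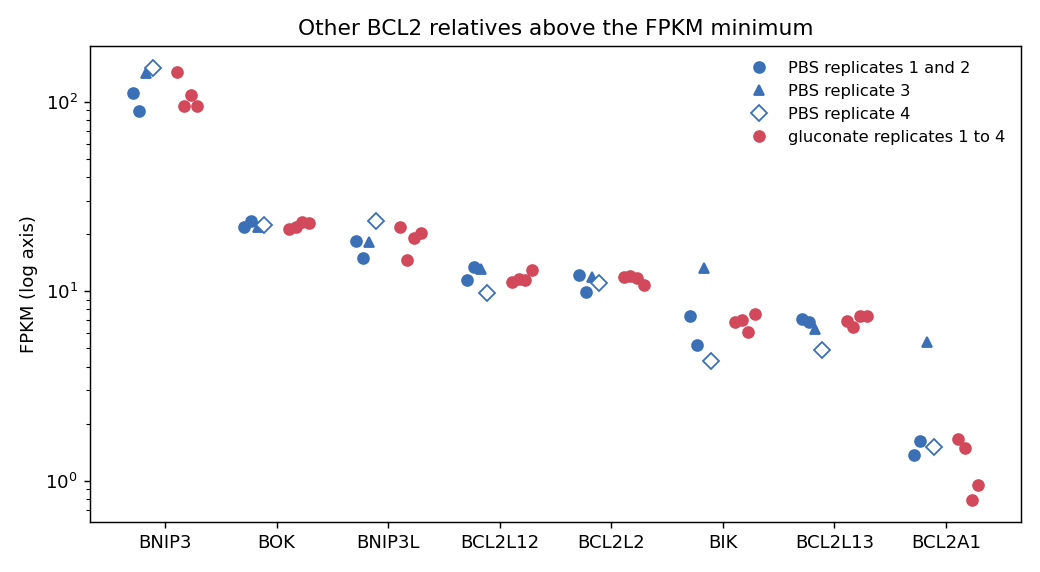
FPKM (log axis) of the 8 other BCL2 relatives above the minimum in each library, ordered by level, with PBS in blue and gluconate in red. PBS replicate 3 (triangle) is apart from the rest in BCL2A1 (5.37 FPKM) and BIK (13.2 FPKM), and BOK is nearly level across all libraries (21.1 to 23.5 FPKM).

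Downstream of the members, all 15 genes of the mitochondrial death machinery passed the minimum, 9 with a log2 fold change above 0 and 6 below. Their median was 0.02 (-0.03 without PBS replicate 4), and 0 genes had an unadjusted p under 0.05 (limma). Among all genes tested, 66.4% were above 0, the median was 0.07 (-0.00) and 4.62% had an unadjusted p under 0.05. CASP6, named after its values were seen, was low in PBS replicate 4 alone, at 2.79 FPKM against 6.74 to 7.69 FPKM. ENDOG, a mitochondrial nuclease, had the largest fall, -0.23 (95% interval -0.52 to 0.06), and -0.16 without PBS replicate 4.

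In the death receptor arm, which feeds into the family through BID, 9 of 10 genes passed the minimum, 8 with a log2 fold change above 0 and 1 below, with a median of 0.17 and 0 genes at an unadjusted p under 0.05 (limma). Over all genes tested, 66.4% were above 0 with a median of 0.07, and 4.62% had an unadjusted p under 0.05. Without PBS replicate 4 the median was 0.05 for the list and -0.00 for all genes. The receptor FAS had the largest rise, with a log2 fold change of 0.25 and a 95% interval of -0.23 to 0.74, and was at 0.09 without PBS replicate 4, its lowest library at 1.53 FPKM. TNFRSF10B, a receptor for TRAIL, had the largest fall, -0.17 (95% interval -0.52 to 0.18), which was -0.01 without PBS replicate 4, the library with the highest value, 19.4 FPKM against 11.3 to 13.8 FPKM.

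Of 21 genes that control the members, 18 passed the minimum, 9 with a log2 fold change above 0 and 9 below. Their median was -0.00 (-0.01 without PBS replicate 4), and 0 genes had an unadjusted p under 0.05 (limma). The shares over all genes tested were 66.4% above 0 and 4.62% at an unadjusted p under 0.05, with a median of 0.07 (-0.00). DDIT3, a stress factor that acts on BCL2L11 and BBC3, had the largest rise, 0.32 (95% interval -0.07 to 0.71), and 0.15 without PBS replicate 4, its lowest library at 17.0 FPKM. HUWE1, a ubiquitin ligase of MCL1, had the largest fall, -0.31 (95% interval -0.78 to 0.16), with 39.4 FPKM in PBS replicate 4 against 17.1 to 22.9 FPKM in the others. Without that library its log2 fold change was -0.08. The groups did not overlap in 2 of the 18 genes, which are the only such genes among the 50 tested over all 4 lists, where 3.49% of all genes tested had no overlap. The count is thus near the background, and both are named after their values were seen. FBXW7, which marks MCL1 for degradation, was at 1.66, 1.88, 1.86 and 2.49 FPKM in PBS and at 1.56, 1.62, 1.58 and 1.61 FPKM in gluconate tumors, with an adjusted p of 0.740 (limma). Its log2 fold change was -0.28, and -0.17 without PBS replicate 4, its highest library. MDM2, a ubiquitin ligase, was at 4.25, 4.02, 4.42 and 4.13 FPKM in PBS and at 3.89, 3.90, 3.94 and 3.82 FPKM in gluconate tumors, with an adjusted p of 0.741 (limma) and a log2 fold change of -0.11, or -0.12 without PBS replicate 4. Over all 4 lists, 50 of 59 genes passed the minimum, 30 with a log2 fold change above 0 and 20 below, and their adjusted p ran from 0.740 to 0.991 (limma).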

How the data were processed

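The table deposited by the authors gives FPKM for 24196 gene symbols, in 8 columns headed C or T with a replicate number. C was read as PBS and T as gluconate, since the study plots gluconate against PBS as T over C and no other group of the labels has 4 libraries. The submitters' processing notes name the build GRCh38. Aligner, annotation and strand setting are not given in the sources used here. Members and gene lists were chosen with earlier results of these data known.

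FPKM values fell on whole multiples of 1 fragment (within 0.01) in all 8 libraries for 100% of the 15002 genes above 0 in every library, and these fragments gave depths, gene lengths and 95% Poisson intervals. Groups were compared with limma 3.58.1 in R 4.3.3 (lmFit, eBayes with trend, two-sided, no block) on log2(FPKM + 0.1), which understates changes of low genes, over 12486 genes with a mean of at least 0.5 FPKM. BCL2 lies below that minimum and was taken from the fit without it. Single members were also compared with an exact permutation test (scipy 1.17.1). The scripts were tested on simulated data. All 10 members are named. Of each list, genes at an unadjusted p under 0.05 and the largest rise and fall are named, and some items are not reported here. The 3 genes most correlated with the member of lowest p and with the tested member of largest spread are also named. Replicate numbers did not pair the libraries (correlations of same-numbered deviations -0.18, 0.08, 0.17 and -0.06). Alternatives were pseudocounts of 1 and 0.01, no minimum, a minimum of 1 FPKM, quantile and median-ratio scaling, a replicate block, leaving out each library, and, chosen after seeing the data, voom on the recovered fragments and fits without PBS replicate 4. Sequences and coordinates come from GENCODE 29 on GRCh38, read with Python 3.11.15, pandas 2.3.3 and numpy 2.4.6, and matplotlib 3.10.9 drew the figures.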

Additional observations from a re-analysis of the deposited data

Results flagged for a closer look

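In 3 of 48 groups examined (10 members, 8 relatives and 6 ratios in each group), 1 library lay apart from the other 3 by more than the 95% critical value of Dixon's test allows, where chance gives about 1 in 20 groups, or 2.4 of 48. MCL1 was at 77.0 FPKM in PBS replicate 2 against 85.8 to 87.5 FPKM in the other PBS tumors, a gap of 0.836 of the range. MCL1 was also at 79.7 FPKM in gluconate replicate 4 against 82.9 to 83.5 FPKM in the other gluconate tumors, a gap of 0.847 of the range. BCL2A1 was at 5.37 FPKM (179 fragments) in PBS replicate 3 against 1.36 to 1.62 FPKM in the other PBS tumors, a gap of 0.936 of the range.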

How the results depend on the processing

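Under all 18 alternatives, 0 genes had an adjusted p under 0.05 and 0 members an unadjusted p under 0.05 (limma and voom). Genes at an unadjusted p under 0.05 with a 2-fold change numbered 37, and 8 with a pseudocount of 1, 77 without a minimum, 16 with voom, 15 with voom without PBS replicate 4, and 11 to 90 when 1 library was left out (11 without PBS replicate 4, 16 and 23 without gluconate replicates 3 and 4, and 90, 75 and 86 without PBS replicates 1, 2 and 3). Genes at an unadjusted p under 0.05 alone numbered 577, and 267 (without gluconate replicate 4) to 1214 (without PBS replicate 1) when 1 library was left out. Other counts past 1.5 times were 289 without gluconate replicate 3, 873 without PBS replicate 2, and 1028 and 1178 without a minimum, with and without PBS replicate 4. The fits without a minimum tested 24196 genes, against 12486 in the main fit, so their counts are over a larger set. The cause of the other shifts was not tested. Member log2 fold changes kept their sign in 155 of 175 settings, and no reversal exceeded 0.12 in size. Signs turned under median-ratio scaling for BID (-0.021), PMAIP1 (-0.039) and BCL2L11 (-0.021), and under quantile normalization for PMAIP1 (-0.018) and BCL2L11 (-0.035). With voom BCL2L11 was at -0.075, and with voom without PBS replicate 4 BCL2L11 was at -0.12 and PMAIP1 at -0.0036. Without PBS replicate 4, with or without the minimum, PMAIP1 was at -0.0064 and BCL2L11 at -0.11. Leaving out 1 library gave log2 fold changes of -0.082 to 0.0041 for BCL2L1, -0.017 to 0.12 for BID, -0.13 to 0.025 for BAD, -0.091 to 0.18 for PMAIP1 and -0.11 to 0.20 for BCL2L11. MCL1 and BAX stayed below 0, and BAK1, BCL2 and BBC3 above 0, with BBC3 from 0.05 to 0.52. A replicate block left 470 genes at an unadjusted p under 0.05, against 577, and changed no call, with 0 members and 0 genes at an adjusted p under 0.05. Scaling moved the median of all genes from 0.07 to 0.01. In PBS replicate 4, BBC3 rested on 8 fragments and BCL2 on 15.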
